A study of Arabidopsis thaliana with 6 samples.

Results

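The NF-YB family of Arabidopsis, with LEAFY COTYLEDON1 (LEC1), was followed in leaf cells that were made to express a soybean oil regulator. The 10 members were LEC1 (AT1G21970), LEC1-LIKE (L1L, AT5G47670), NF-YB1 (AT2G38880), NF-YB2 (AT5G47640), NF-YB3 (AT4G14540), NF-YB4 (AT1G09030), NF-YB5 (AT2G47810), NF-YB7 (AT2G13570), NF-YB8 (AT2G37060) and NF-YB10 (AT3G53340), and 7 of them had reads among 21671 genes with reads in any library. They were chosen by family, and the family was selected on earlier results from these same libraries, so the difference between the groups is given for them as a description with no test.

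The cells were leaf mesophyll protoplasts of ecotype Col-0, which are leaf cells without walls. Both groups were transfected with a plasmid driven by the constitutive cauliflower mosaic virus 35S promoter, which carried 35S:GmWRI1-A in 3 libraries, called GmWRI1, and 35S:mCHERRY in 3 control libraries, called mCHERRY. GmWRI1 is a soybean homolog of WRINKLED1, an AP2-type transcription factor that activates fatty acid synthesis in seeds, and mCHERRY is a red fluorescent protein. RNA was taken after 16 h of incubation from a transfected population. The sources used here describe no step that separated cells without plasmid from the rest, and the replicates were labelled as biological.

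NF-Y is a complex of 3 kinds of subunit, in which NF-YB and NF-YC pair through histone folds and NF-YA contacts the CCAAT box of promoters. Plants have many genes for each subunit. LEC1 and L1L form the embryo type of NF-YB, active mainly in seeds, where LEC1 acts upstream of storage oil and protein genes and of WRI1 itself. The remaining members are the non-LEC1 type, and several of them are made throughout the plant.

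The libraries held 4950522 to 11748328 gene counts in GmWRI1 and 4155836 to 8227115 in mCHERRY. Levels are given in CPM, the reads of a gene relative to the size of its library, after TMM scaling for composition, and a count of 0 allows up to 3 reads, or 0.256 to 0.740 CPM in these libraries. That floor and all intervals of counts cover counting error only. The mesophyll markers RBCS1A, RCA and LHCB2.1 were up-regulated in GmWRI1 libraries and CA1 was not, and the 4 markers summed to 556 to 640 CPM in GmWRI1 and 183 to 198 CPM in mCHERRY libraries. The 3 epidermis markers summed to 3.63 to 7.03 CPM in GmWRI1 and 1.10 to 1.73 CPM in mCHERRY libraries, with CER6 up-regulated. FDH had 16, 4 and 1 reads in GmWRI1 libraries 1, 2 and 3 and 0 reads in all mCHERRY libraries. ATML1 overlapped between the groups, with means of 0.269 CPM in GmWRI1 and 0.288 CPM in mCHERRY libraries. Guard cell markers overlapped between the groups at 1.21 to 3.17 CPM in GmWRI1 and 0.987 to 2.27 CPM in mCHERRY libraries. Phloem markers summed to 0.276 to 0.682 CPM in GmWRI1 and 0.366 to 0.740 CPM in mCHERRY libraries. The part of these marker differences in the results that follow was not tested.

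In LEC1-type proteins an aspartate stands in the conserved histone-fold region where other NF-YB proteins have a lysine, and it is known to be needed for LEC1 function. When the members were aligned, 1 position held an aspartate codon in LEC1 and L1L and a lysine codon in all 8 other members. The stretches of 27 bases around that codon, which stands in capitals, are shown on the coding strand of genome build TAIR10.1 for the embryo type and for 3 of the other members. It is 1 of 16 aligned positions at which LEC1 and L1L share a residue that no other member has, and is shown for its known role.
LEC1: gccaaaatctctGACgacgccaaagaa
L1L: gccaagatctcaGATgactccaaggag
NF-YB2: gccaagatctctAAAgatgccaaagag
NF-YB3: gcaaaaatctctAAGgatgctaaagaa
NF-YB8: gggaaaatcgctAAAgatgctaaggag
The LEC1 window lies at chr1:7728200-7728226 on the minus strand, around codon 85, and the L1L window at chr5:19315508-19315534 on the plus strand, around codon 84. The NF-YB2 window is at chr5:19309558-19309584, the NF-YB3 window at chr4:8344789-8344815 and the NF-YB8 window at chr2:15576489-15576515, all on the plus strand. Each window lies within 1 exon. The lysine codon was AAA in 7 of the 8 non-LEC1 members and AAG only in NF-YB3. Translated from the reference genome, LEC1 and L1L were identical at 73.4% of the 109 positions aligned in all members, NF-YB2 and NF-YB3 at 84.4% and NF-YB8 and NF-YB10 at 91.7%.

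LEC1, the master regulator of embryo maturation, was detected almost entirely in GmWRI1 libraries. Its gene lies at chr1:7727577-7729649 on the minus strand and has 2 exons. LEC1 had 28, 10 and 8 reads in GmWRI1 libraries 1, 2 and 3, against 1, 1 and 0 reads in mCHERRY libraries 1, 2 and 3. Every GmWRI1 library was therefore above every mCHERRY library, and each mCHERRY library held no more reads than the floor of 3. The LEC1 level averaged 1.79 ± 0.527 CPM in GmWRI1 and 0.0946 ± 0.0843 CPM in mCHERRY libraries (SD, n = 3 each). Summed over libraries, 46 reads in GmWRI1 and 2 reads in mCHERRY gave a ratio of 17.7 with an exact 95% counting interval of 4.63 to 151. The ratio ran between 13.6 and 23.5 when each library was left out in turn. LEC1 was too weak to pass the filter on low counts and has no fitted fold change. In a population of cells, more cells with LEC1 RNA and more LEC1 RNA per cell cannot be told apart.

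L1L, the closest relative of LEC1 and also a seed maturation regulator, did not share this pattern. It had 5, 9 and 3 reads in GmWRI1 libraries 1, 2 and 3, against 11, 5 and 2 reads in mCHERRY libraries. The groups overlapped, with the highest and the second lowest level both in mCHERRY libraries. The summed reads, 17 in GmWRI1 and 18 in mCHERRY, gave a ratio of 0.727 with an exact 95% counting interval of 0.352 to 1.49. L1L counts carry a further uncertainty, since 116 bases of the gene overlap AT5G47660 on the same strand and 124 bases overlap TRM10 on the opposite strand. Of the 36-base windows of its transcript, 16.4% also match 1 of these neighbours with up to 2 mismatches. Reads with more than 1 equally good location were discarded. LEC1 shared 0 of its 933 windows with another transcript.

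**Figure D1:**
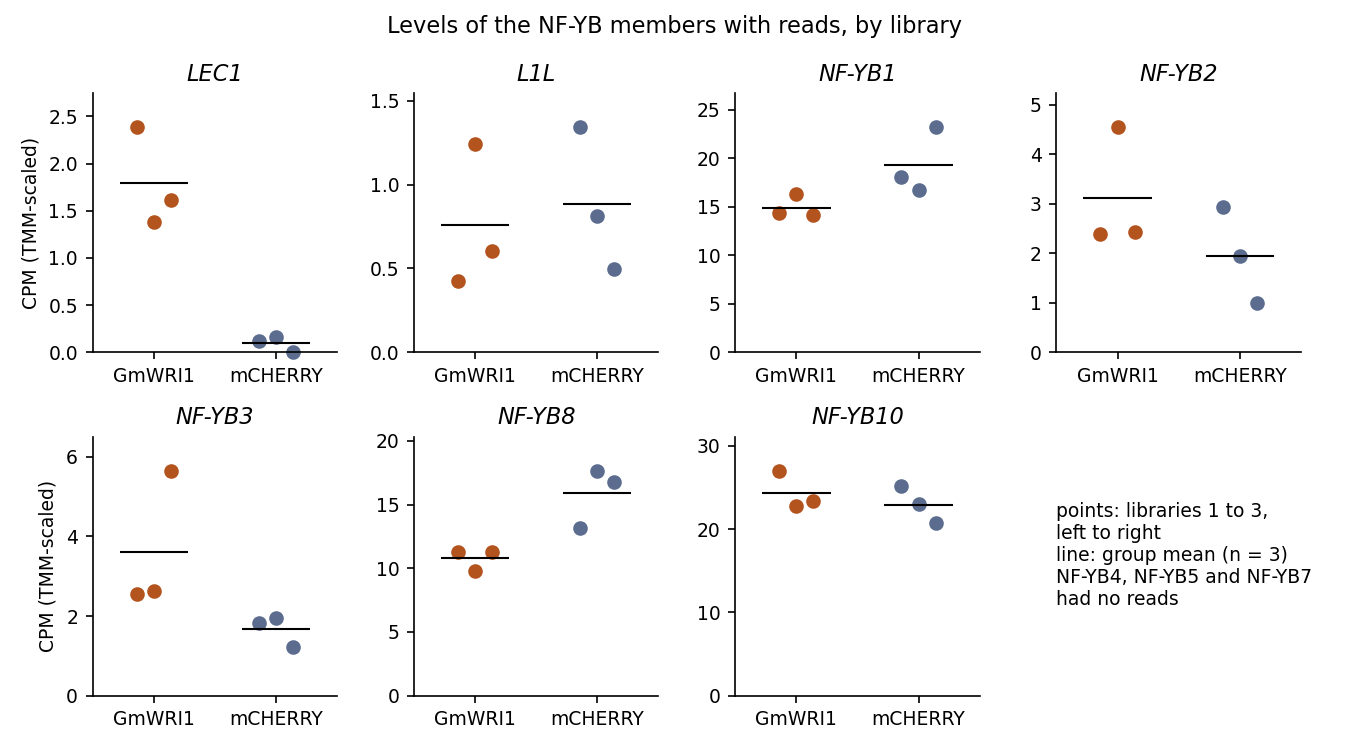
Level in CPM (TMM-scaled, linear axes from 0) of the 7 NF-YB members with reads, with GmWRI1 libraries on the left and mCHERRY libraries on the right of each panel, points for libraries 1 to 3 and a line at each group mean (n = 3). LEC1 stood at 1.38 CPM or more in the GmWRI1 libraries and at 0.162 CPM or less in the mCHERRY libraries, whereas L1L, NF-YB2 and NF-YB10 overlapped between the groups.

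NF-YB1, NF-YB8 and NF-YB10 carried most NF-YB reads in both groups. NF-YB10 had 317, 165 and 116 reads in GmWRI1 libraries 1, 2 and 3, against 206, 142 and 84 reads in mCHERRY libraries. Its level was 24.4 ± 2.30 CPM in GmWRI1 and 23.0 ± 2.20 CPM in mCHERRY libraries (SD, n = 3 each), with overlapping groups and a log2 fold change of 0.09 ± 0.14 (SE). NF-YB10 was thus the member with the smallest fitted difference.

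NF-YB1, which is known to improve drought tolerance when overexpressed, had 168, 118 and 70 reads in GmWRI1 libraries 1, 2 and 3, against 148, 103 and 94 reads in mCHERRY libraries. In CPM it was 14.3, 16.3 and 14.1 in GmWRI1 libraries, against 18.1, 16.7 and 23.2 in mCHERRY libraries. The groups did not overlap, but GmWRI1 library 2 and mCHERRY library 2 lay close together. The log2 fold change was -0.35 ± 0.16 (SE), and it was -0.23 without mCHERRY library 3.

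NF-YB8, the closest relative of NF-YB10, had 132, 71 and 56 reads in GmWRI1 libraries 1, 2 and 3, against 108, 109 and 68 reads in mCHERRY libraries. Its level was 11.2, 9.79 and 11.3 CPM in GmWRI1 libraries, against 13.2, 17.6 and 16.8 CPM in mCHERRY libraries, so every GmWRI1 library was below every mCHERRY library. The log2 fold change was -0.54 ± 0.18 (SE). With up to 2 mismatches, NF-YB8 and NF-YB10 share 76 windows of 36 bases, 8.71% of the NF-YB8 transcript windows and 7.22% of those of NF-YB10. Reads from there that matched both genes equally well would have been discarded.

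NF-YB2 and NF-YB3 are close relatives that promote flowering under long days together with CONSTANS. NF-YB3 had 30, 19 and 28 reads in GmWRI1 libraries 1, 2 and 3, against 15, 12 and 5 reads in mCHERRY libraries. In CPM these were 2.56, 2.62 and 5.65 in GmWRI1 libraries, against 1.83, 1.94 and 1.23 in mCHERRY libraries, with no overlap. The log2 fold change of 0.97 ± 0.40 (SE) was the highest among the 5 members that passed the filter, and it came to 0.59 without GmWRI1 library 3, where the level was highest.

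NF-YB2 had 28, 33 and 12 reads in GmWRI1 libraries 1, 2 and 3, against 24, 12 and 4 reads in mCHERRY libraries. Its levels of 2.39, 4.55 and 2.42 CPM in GmWRI1 libraries and 2.93, 1.94 and 0.987 CPM in mCHERRY libraries overlapped. The log2 fold change was 0.56 ± 0.40 (SE). This value rested on single libraries, being 0.19 without GmWRI1 library 2 and 1.00 without mCHERRY library 1. NF-YB2 lies 4505 bases from L1L on chromosome 5. It overlaps NUDT2 by 81 bases and the noncoding RNA gene AT5G07015 by 367 bases, both on the opposite strand, and 4.55% of its 36-base windows also match NUDT2.

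NF-YB4, NF-YB5 and NF-YB7 had no line in the count files used here. The files list only transcripts with reads, so such genes were taken as having 0 reads, although a missing line is not itself a measured 0. Taken so, each would be limited to 0.256 CPM in the deepest and 0.740 CPM in the shallowest library. No fold is given for these members.

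Over the family, 5 of 10 members passed the filter on low counts. None of these 5 had a log2 fold change over 1 in size. Over the 14762 genes tested, 9.44% were called up-regulated and 1.45% down-regulated, at a log2 fold change over 1 in size and an adjusted p under 0.05 (edgeR). Among the 5, NF-YB3 was without overlap above and NF-YB1 and NF-YB8 were without overlap below, where 46.1% of all tested genes had groups that did not overlap. The fitted log2 fold changes had a median of 0.09 over the 5 members and -0.01 over all tested genes. Summed over the family, the level was 58.6 to 60.3 CPM in GmWRI1 and 62.2 to 63.4 CPM in mCHERRY libraries.

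**Figure D2:**
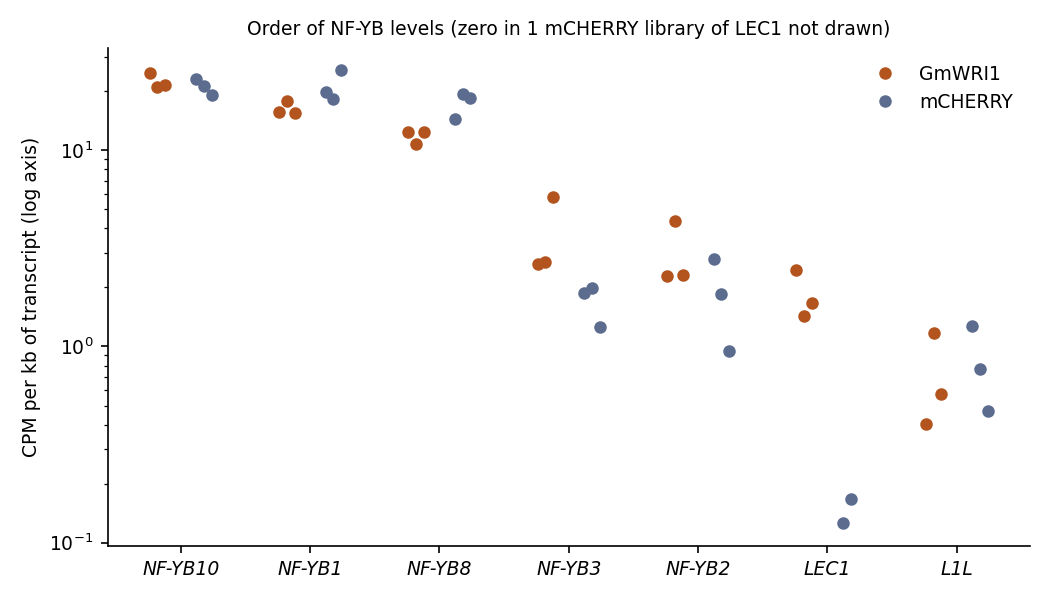
Level of each NF-YB member with reads in CPM per kb of transcript (log axis), ordered by the mean over 6 libraries, with the GmWRI1 libraries on the left and the mCHERRY libraries on the right of each gene. NF-YB10, NF-YB1 and NF-YB8 lay at 10.8 CPM per kb or more in every library and all other members at 5.79 or less, and the mCHERRY library with 0 LEC1 reads is not drawn.

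Per kb of transcript, the order of the mean levels over all libraries was NF-YB10 at 21.8 CPM per kb, NF-YB1 at 18.8, NF-YB8 at 14.7, NF-YB3 at 2.70, NF-YB2 at 2.42, LEC1 at 0.975 and L1L at 0.778. The gap between NF-YB8 and NF-YB3 was the one break at which no library of the upper member overlapped one of the lower. NF-YB10 and NF-YB1 overlapped in level, as did NF-YB1 and NF-YB8, NF-YB3 and NF-YB2, and LEC1 and L1L. LEC1 changed its place between the groups. It stood at 1.42 to 2.47 CPM per kb in GmWRI1 libraries, above the 0.405 to 1.18 CPM per kb of L1L, and at 0 to 0.167 CPM per kb in mCHERRY libraries, below the 0.469 to 1.28 CPM per kb of L1L. In GmWRI1 libraries its highest value reached into the range of NF-YB2, which was 2.28 to 4.35 CPM per kb.

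The embryo type made up a larger part of the NF-YB reads in GmWRI1 libraries. LEC1 and L1L together held 4.66%, 4.47% and 3.75% of NF-YB reads in GmWRI1 libraries 1, 2 and 3, against 2.34%, 1.56% and 0.778% in mCHERRY libraries. The shares averaged 4.30% ± 0.478 in GmWRI1 and 1.56% ± 0.780 in mCHERRY libraries (SD, n = 3 each), a difference of 2.74 percentage points. The groups did not overlap, but the exact 95% binomial intervals of single libraries did, with 1.89% to 6.62% in GmWRI1 library 3 and 1.21% to 4.05% in mCHERRY library 1. Most embryo-type reads were LEC1 in GmWRI1 libraries, where LEC1 had 46 reads and L1L 17, and L1L in mCHERRY libraries, where LEC1 had 2 reads and L1L 18.

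**Figure D3:**
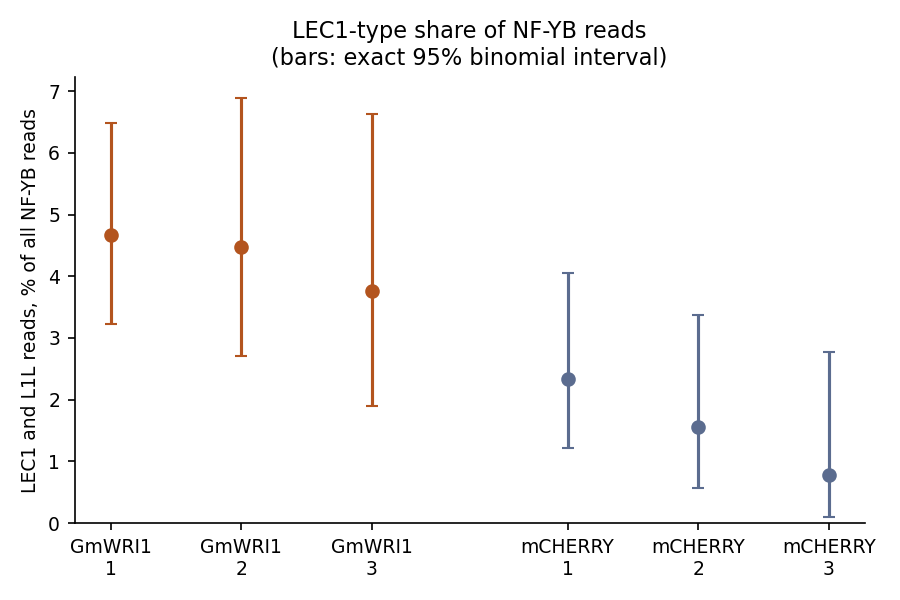
Share of LEC1 and L1L reads among all NF-YB reads (percent, axis from 0) in each library, with exact 95% binomial intervals as bars and GmWRI1 libraries left of mCHERRY libraries. The shares were 3.75% to 4.66% in GmWRI1 and 0.778% to 2.34% in mCHERRY libraries.

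Sequences that WRI1 and NF-Y factors are known for were searched on both strands within 500 bases on each side of the annotated start of each member. The AW Box, CNTNGNNNNNNNCG, is the element bound by WRI1, and a match to it lay near 7 of 10 members and 51.1% of 27443 protein-coding genes. A CNC Box, CNCCNCC, lay near 8 of 10 members and 58.6% of genes, and a CCAAT box near 8 of 10 members and 89.2% of genes. The AW Box matches nearest to the start of LEC1, of its relative L1L and of the member with the highest fitted difference are shown with the fixed letters of the motif in capitals.
LEC1: CcTcGtaagaacCG
L1L: CcTcGgtcacatCG
NF-YB3: CcTtGaggaaagCG
The LEC1 match, chr1:7729698-7729711 on the minus strand, begins 62 bases before the start and overlaps a CNC Box match. The L1L match, chr5:19314842-19314855 on the plus strand, begins 64 bases after the start, and a second L1L match begins 407 bases before it. The NF-YB3 match, chr4:8343924-8343937 on the plus strand, begins 425 bases before the start. No AW Box match was in the windows of NF-YB2, NF-YB5 and NF-YB8. NF-YB1, whose level was lower in GmWRI1 libraries without overlap, NF-YB4 and NF-YB7, taken as having no reads, and NF-YB10, whose groups overlapped, had 1 match each.

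The partners of NF-YB were compared in the same fit. The NF-YC genes are the family that holds the direct partners of NF-YB. Of 6 tested, 1 was called up-regulated and 0 down-regulated (edgeR quasi-likelihood test, Benjamini-Hochberg adjustment). Over all tested genes, 9.44% were called up-regulated and 1.45% down-regulated. At an unadjusted p under 0.05, 3 of the 6 NF-YC genes were higher and 0 lower. At least 20.4% of all tested genes were higher and 14.6% lower at that unadjusted limit, since those shares passed an adjusted p under 0.05. NF-YC3 had 55.1, 49.2 and 42.4 CPM in GmWRI1 libraries 1, 2 and 3, against 16.1, 16.8 and 14.3 CPM in mCHERRY libraries. All GmWRI1 libraries were far above all mCHERRY libraries, with a log2 fold change of 1.63 ± 0.14 (SE, adjusted p = 3.3e-09, edgeR). NF-YC9, which with NF-YC3 and NF-YC4 acts in flowering beside NF-YB2 and NF-YB3, had 17.7, 17.4 and 16.5 CPM in GmWRI1 libraries, against 9.88, 9.88 and 6.66 CPM in mCHERRY libraries. Its log2 fold change of 0.93 ± 0.18 (SE, adjusted p = 0.000304, edgeR) passed the adjusted p and stayed under the limit on size. NF-YC4 overlapped between the groups and did not pass, with a log2 fold change of 0.54 ± 0.29 (SE, adjusted p = 0.164, edgeR). NF-YC10 had a log2 fold change of 0.39 (adjusted p = 0.0519, edgeR) and NF-YC11, the NF-YC gene with the highest level, one of -0.04 (adjusted p = 0.782). NF-YC5, NF-YC6, NF-YC7 and NF-YC8 had no line in the count files used here.

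Among the NF-YA genes, whose products bind the CCAAT box, 0 of 7 tested genes were called in either direction by edgeR and 0 by DESeq2. By edgeR, 9.44% of all tested genes were called up-regulated and 1.45% down-regulated. All 7 NF-YA genes had a fitted value below 0, with a median of -0.55 on the log2 scale, as did 7570 of the 14762 genes tested. The 7 signs were the same with RLE size factors, library size alone and DESeq2, but NF-YA2 lay close to 0 (-0.04 ± 0.44, SE). Among untested genes, NF-YA5 averaged 1.71 CPM in GmWRI1 and 1.21 CPM in mCHERRY libraries, NF-YA10 0.245 and 0.108, and NF-YA8 1.05 and 1.55. At an unadjusted p under 0.05, 4 of the 7 tested genes were lower and 0 higher. The adjusted p passed for NF-YA3, NF-YA6 and NF-YA7, which are named here because of that result, where 14.6% of all tested genes passed it with a lower value and 20.4% with a higher one. NF-YA7 had 5.71, 4.41 and 4.64 CPM in GmWRI1 libraries, against 9.03, 10.8 and 8.14 CPM in mCHERRY libraries, and its log2 fold change was -0.91 ± 0.23 (SE, adjusted p = 0.00337, edgeR). NF-YA3 had a log2 fold change of -0.77 (adjusted p = 0.00555) and NF-YA6 one of -0.62 (adjusted p = 0.00985), and in both every GmWRI1 library was below every mCHERRY library. NF-YA4, NF-YA1 and NF-YA9, also among the 4 with the highest levels, had log2 fold changes of -0.31, -0.18 and -0.55 and did not pass.

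The NF-YB11, NF-YB12 and NF-YB13 genes encode more distant histone-fold proteins. By edgeR, 9.44% of all tested genes were called up-regulated and 1.45% down-regulated. None of NF-YB11, NF-YB12 and NF-YB13 was called by edgeR or DESeq2 or had an unadjusted p under 0.05. Their log2 fold changes were -0.24 ± 0.36, 0.11 ± 0.16 and -0.26 ± 0.17 (SE).

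**Figure D4:**
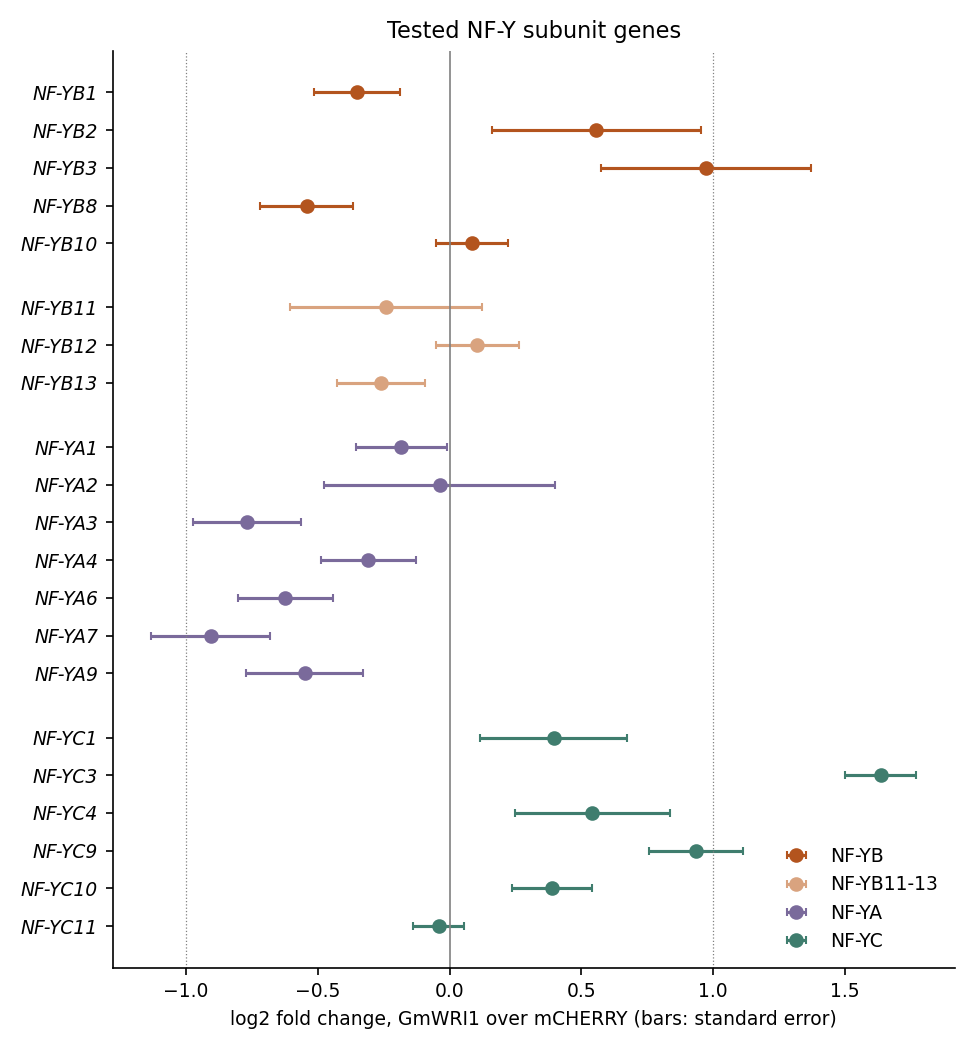
Log2 fold change, GmWRI1 over mCHERRY, of the tested NF-Y subunit genes, with standard errors as bars, dotted lines at the size limit of 1 in each direction, and colors for the subunit lists. NF-YC3 at 1.63 lay beyond the limit, the 7 NF-YA genes lay between -0.91 and -0.04, and the 5 NF-YB members lay between -0.54 and 0.97.

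Among 14 other regulators of seed development that act beside LEC1, 9 had reads and 7 were tested, with 1 up-regulated and 0 down-regulated (edgeR). Over all tested genes, 9.44% were called up-regulated and 1.45% down-regulated. At an unadjusted p under 0.05, 2 of the 7 regulators were higher and 1 lower, where at least 20.4% of all tested genes were higher and 14.6% lower. BABY BOOM (BBM), an AP2-type factor that induces somatic embryos and activates LEC1, had 28, 25 and 16 reads in GmWRI1 libraries 1, 2 and 3, against 0 reads in all mCHERRY libraries. BBM was therefore at least 5.69-fold higher in GmWRI1 libraries, with each mCHERRY library set at the floor of 3 reads. It was the 1 regulator called, but it passed the filter on low counts only through its reads in GmWRI1 libraries. Its call is therefore given as a description. FUS3, ABI3, ABI4, bZIP67 and bZIP53 had no line in the count files used here and were taken as 0 with the same doubt. LEC2 had 1 read in GmWRI1 and 1 in mCHERRY libraries. AGL15, too weak to test, had 0, 1 and 0 reads in GmWRI1 libraries 1, 2 and 3, against 5, 1 and 1 reads in mCHERRY libraries. The basic leucine zipper genes bZIP25, bZIP10 and AREB3 were present in both groups, with log2 fold changes of -0.20, 0.22 and 0.05 that did not pass the test. The endogenous WRI1 gene, named after its values were seen, did not pass either, with a log2 fold change of -0.997 ± 0.546 (SE, adjusted p = 0.169, edgeR). It had 12, 1 and 11 reads in GmWRI1 libraries 1, 2 and 3, against 22, 13 and 4 reads in mCHERRY libraries.

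Of 17 genes for seed storage proteins, oil body proteins and related maturation products, 8 had reads and 1, EM6, was tested and not called by edgeR or DESeq2. EM6, a late embryogenesis abundant protein gene, had a log2 fold change of 0.20 ± 0.14 (SE, adjusted p = 0.31, edgeR). FAE1, the condensing enzyme that makes very long chain fatty acids of seed oil, had 15, 14 and 10 reads in GmWRI1 libraries 1, 2 and 3, against 0 reads in all mCHERRY libraries. That was at least 3.28-fold higher in GmWRI1 libraries, with the same floor of 3 reads per library. PER1 and CLO1, a seed peroxiredoxin and an oil body caleosin, stayed under 1 CPM in every library. No reads were listed for the albumin genes SESA1 to SESA5, nor for OLEO2, OLEO3 and OLEO4.

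Among 17 repressors that keep LEC1 silent after germination, all had reads and 16 were tested, with 1 up-regulated and 1 down-regulated (edgeR). Over all tested genes, 9.44% were called up-regulated and 1.45% down-regulated. VAL3, with 0 to 5 reads per library, was too weak to test. Of all tested genes, 20.4% were higher and 14.6% lower at an adjusted p under 0.05. Of the 16 tested repressors, 5 were higher and 3 lower at that limit, and likewise at an unadjusted p under 0.05. The higher ones were PKL, SWN, FIE, MSI1 and RING1A and the lower ones RING1B, VAL1 and ASIL1, of which FIE, MSI1, RING1A and ASIL1 are named because of that result. Over the list, the summed level was 517 to 561 CPM in GmWRI1 and 445 to 474 CPM in mCHERRY libraries. PICKLE (PKL), a chromatin remodeler that represses LEC1 in seedlings, had 79.9, 94.6 and 76.7 CPM in GmWRI1 libraries, against 41.1, 43.2 and 41.2 CPM in mCHERRY libraries. Its log2 fold change of 1.00 ± 0.11 (SE, adjusted p = 2.04e-07, edgeR) lay at the size limit, and the call was lost in 5 of the 8 other fits that used all libraries. SWN, a histone methyltransferase of a Polycomb repressive complex, had 92.3, 98.8 and 83.7 CPM in GmWRI1 libraries, against 49.5, 51.5 and 53.3 CPM in mCHERRY libraries, with a log2 fold change of 0.84 ± 0.10 (SE, adjusted p = 1.02e-06, edgeR). RING1B, a Polycomb ubiquitin ligase subunit, had 2.21, 2.48 and 4.03 CPM in GmWRI1 libraries, against 6.22, 6.64 and 4.20 CPM in mCHERRY libraries. It was down-regulated, with a log2 fold change of -1.07 ± 0.31 (SE, adjusted p = 0.00963, edgeR), and the call was lost without GmWRI1 library 1 (-0.87) or mCHERRY library 2 (-0.96). VAL1, a B3-domain repressor of LEC1, had a log2 fold change of -0.33 (adjusted p = 0.0208).

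Of 6 genes that act with or below non-LEC1 NF-YB proteins, 4 were tested and 0 were called by edgeR or DESeq2. By edgeR, 9.44% of all tested genes were called up-regulated and 1.45% down-regulated. At an unadjusted p under 0.05, 2 of the 4 were lower and 0 higher, where at least 14.6% of all tested genes were lower and 20.4% higher. DREB2A, a stress regulator, had a log2 fold change of -0.51 (adjusted p = 0.000359, edgeR) and SOC1, a flowering gene, one of -0.59 (adjusted p = 0.01), both passing the adjusted p alone. bZIP28 and HSFA3, regulators of the unfolded protein and heat responses, had log2 fold changes of -0.08 and -0.49 and did not pass. FT had no line in the count files used here.

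**Figure D5:**
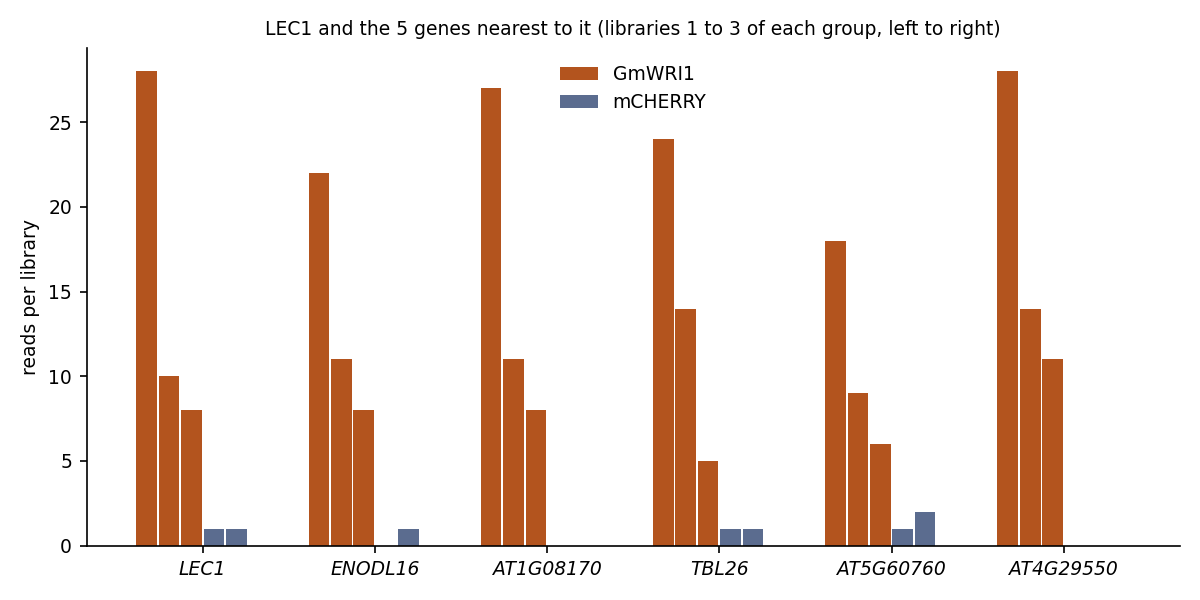
Reads per library (axis from 0) of LEC1 and of the 5 genes whose levels over the 6 libraries lay nearest to it, with GmWRI1 libraries 1 to 3 left of mCHERRY libraries 1 to 3 for each gene. LEC1 and all 5 genes had 5 to 28 reads in each GmWRI1 library and 0 to 2 reads in each mCHERRY library.

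Genes with levels like those of LEC1 were sought among 384 others that had at least 3 reads in every GmWRI1 library and at most 3 in every mCHERRY library, a wide rule that also admits genes with 3 reads throughout. The 5 nearest to LEC1 by Euclidean distance of log2(CPM + 0.5) over the 6 libraries were ENODL16 (AT3G01070), an early nodulin-like gene, AT1G08170, annotated as a histone superfamily gene, TBL26 (AT4G01080), a trichome birefringence-like gene, AT5G60760, annotated as a nucleoside triphosphate hydrolase, and AT4G29550, of unknown function. ENODL16 was nearest, at a distance of 0.435 log2 units, with 22, 11 and 8 reads in GmWRI1 libraries and 0, 1 and 0 reads in mCHERRY libraries. AT4G29550, at a distance of 0.730, had 28, 14 and 11 reads in GmWRI1 libraries and 0 reads in all mCHERRY libraries. The genes were picked for their likeness in these libraries, and no test was made.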

How the data were processed

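RNA of 3 GmWRI1 and 3 mCHERRY protoplast libraries was analysed, grouped by the treatment labels. According to its methods section, the study amplified cDNA from total RNA. The authors removed ribosomal reads and aligned the rest with Bowtie 0.12.7 to TAIR10 primary transcripts, keeping reads with a single best location. Use of strand is not given in the sources used here. The deposited count files hold raw counts per primary transcript, without transcripts at 0. The line that names no gene, 39.4% to 63.3% of each file, was left out. The authors also deposited a table of normalized expression signal, made with edgeR 3.10.5, that lists 15541 transcripts and 6 of the 10 members. Its values gave whole reads in 100% of cases within 0.01 reads, and a count test on those transcripts called 1473 genes up-regulated and 235 down-regulated. Columns set aside numbered 0.

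The quasi-likelihood model of edgeR 4.0.16 (R 4.3.3) was fitted to 14762 genes that passed filterByExpr at 10 counts, after TMM scaling and with group as the single factor, with Benjamini-Hochberg adjustment over all of them. Standard errors came from the quasi-likelihood F statistic. DESeq2 1.42.0 was an alternative, as were other filters, scalings and a replicate block. The code was tested on simulated data. Ratios of summed reads have exact binomial intervals. Sequences were read from RefSeq TAIR10.1 and members were aligned with MAFFT 7.526 after translation. The count files carry no coordinates.

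The members and the gene lists were chosen with earlier results of these data known. The rule for named genes was all 10 members, up to 4 genes of each other list (called genes by size, then those with the highest mean CPM) and the 5 genes nearest to LEC1. Genes outside it (NF-YA2, NF-YA3, NF-YA5, NF-YA7, NF-YA8, NF-YA10, NF-YC4, 4 LEC1 repressors, WRI1, LEC2, AGL15, VAL3, FT and genes listed without reads) were named after their values were seen. Within groups, libraries differed by more than sampling noise (chi-square per degree of freedom 2.89 to 6.97).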

Additional observations from a re-analysis of the deposited data

How the results depend on the processing

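Over all genes, the number up-regulated was 1308 with DESeq2 and 1671 without a filter, and 1258 to 1480 when 1 library was left out, against 1393, and the number down-regulated was 188 to 276 when 1 library was left out, against 214. Log2 fold changes of the 5 fitted members kept their direction under all other filters, scalings and tools, and when 1 library was left out they ran from -0.45 to -0.23 for NF-YB1, 0.19 to 1.00 for NF-YB2, 0.59 to 1.20 for NF-YB3, -0.68 to -0.45 for NF-YB8 and 0.00 to 0.16 for NF-YB10. The difference in the embryo-type share ran from 2.34 to 3.12 percentage points, and the LEC1 ratio from 13.6 to 23.5, an alternative added after the data were seen. Seed storage genes up-regulated numbered 1 in place of 0 with at least 1 CPM in 3 libraries, without a filter and with the transcripts the authors listed, since FAE1 was then tested, and 0 to 1 when 1 library was left out. LEC1 repressors up-regulated numbered 0 in place of 1 with at least 1 CPM in 3 libraries, RLE size factors, DESeq2, the replicate block and the transcripts the authors listed, and 0 to 1 when 1 library was left out, as PKL lay at the size limit. With 1 library left out, 0 to 1 NF-YA genes and 0 to 1 seed regulators were down-regulated against 0, 1 to 2 NF-YC genes were up-regulated against 1, and 0 to 1 LEC1 repressors were down-regulated against 1. The other filters and the transcripts the authors listed also took in LEC1, for which no test is given.

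The labels do not say whether same-numbered libraries were prepared together. The correlation of their deviations from the group means was 0.111, -0.0121 and 0.0460, against -0.0818 to 0.0321 for libraries of unlike number. With the replicate block 1390 genes were up-regulated and 220 down-regulated. Depth limits NF-YB4, NF-YB5 and NF-YB7, taken as 0 reads, and LEC1 and L1L, whose ratios rest on 48 and 35 reads.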
